A study of Mus musculus with 32 samples.

Results

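The change described here is the one that followed 2 days of cytokine induction of primordial germ cell-like cells (PGCLCs) in mouse culture. It was taken as the level in the 2 arrays of cytokine-induced cells (Ck-PGCLCs) at day 2 minus the level in the 2 arrays of epiblast-like cells (EpiLCs) after 36 h of differentiation, from which induction started. These are 4 of the 32 arrays of the series. All annotated genes were measured, 18193 in number, and 15497 of them were tested.

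Ck-PGCLCs and EpiLCs came from one and the same parental ESC clone, BVSCR26rtTA, which is male, of mixed C57BL/6 and 129 background, and carries Blimp1-mVenus, stella-ECFP and Rosa26-rtTA transgenes. ESCs of the clone had been kept without feeders in 2i with LIF. For induction, cells were aggregated at 2000 cells per well. BMP4 was given at 500 ng/ml with as much BMP8A, together with 1000 U/ml LIF, 100 ng/ml SCF and 50 ng/ml EGF. The change from EpiLCs takes in aggregation and time as well as these cytokines, and that contrast cannot tell their parts apart. Another pair of day 2 arrays holds parental cells given doxycycline without these cytokines, which the series' design names as the negative control for exogenous transcription factors. Whether these cells were aggregated is not said in their labels. The last pair used here holds day 2 cells of clone BP14A, a derivative that carries doxycycline-driven piggyBac transgenes for Blimp1 (Prdm1), Prdm14 and Tfap2c and that was aggregated at 2000 cells per well with 1.5 μg/ml doxycycline. No sort is named for the Ck-PGCLC or EpiLC arrays, and each line is a single clone. Each group has 2 arrays. The design calls these biological duplicates, but no label names separate cultures. A p-value here rests on the spread between arrays within groups, pooled over all 16 groups of the fit. It measures neither the spread of the compared pairs alone nor that between cultures known to be separate.

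Germ cells of the mouse arise in the proximal epiblast when BMP4 and BMP8B from extraembryonic tissue act on cells that WNT signalling has made competent. Receptor-bound BMP signals through SMAD1 and SMAD5, and the transcription factors PRDM1 (BLIMP1), PRDM14 and TFAP2C then set up the germ cell programme, which represses somatic genes, restores naive pluripotency genes and lowers the machinery of de novo DNA methylation. In vitro, EpiLCs stand in for the epiblast before gastrulation, while SCF, LIF and EGF support the survival and proliferation of the induced cells.

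Levels below are log2 array signals, normalised between arrays. A gene is called higher or lower where its change was at least 2-fold and its adjusted p from the limma fit was under 0.05. Signals under 4.05, the 40th percentile of all values, are termed dim, and a change that starts or ends there is imprecise in size. Array medians lay between 4.62 and 4.78 over the series. The 2 Ck-PGCLC arrays correlated at r = 0.985 over all genes and the 2 EpiLC arrays at r = 0.976. The 5′ minus 3′ log2 signal of the Gapdh control was -1.47 and -1.12 in the Ck-PGCLC arrays, against -3.03 and -0.42 in EpiLC arrays 1 and 2. That of the Actb control was -2.83 and -2.93 in the Ck-PGCLC arrays, against -2.13 and -2.79 in EpiLC arrays 1 and 2. The 2 controls thus placed EpiLC array 1 differently. In bulk samples, a lower signal from fewer expressing cells and one from less RNA per cell cannot be told apart.

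The labelled cell types were checked against their defining genes first. Ck-PGCLCs had all of the germ cell genes measured from the defining set, namely Prdm1, Prdm14, Tfap2c, Dppa3, Dnd1 and Kit, at 8.02 or more, the lowest value being that of Kit. EpiLCs had Dppa3 at 8.41 and 8.20, so for Dppa3 that level alone does not set the groups apart. EpiLCs had high Fgf5 (10.10 and 9.76), Pou3f1 (12.09 and 11.98), Otx2 (9.21 and 8.94) and Dnmt3b (12.53 and 13.23), all markers of the primed epiblast. Of the naive genes that should be low there, Klf4 (3.92 and 1.31) was dim and Tfcp2l1 (4.64 and 4.31) was close to it, while Esrrb (6.91 and 7.53) and Nr0b1 (8.79 and 8.88) were well above that level. Nanos3 and T (brachyury) were not analysed here.

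Of the 15497 tested genes, 1305 (8.42%) were higher and 939 (6.06%) lower in Ck-PGCLCs than in EpiLCs, so that 58.2% of the calls were higher. On the deposited values without further normalisation the counts were 1621 and 713, or 69.5% higher. A change of at least 4-fold was seen for 462 genes called higher and 289 called lower, and one of at least 16-fold for 95 and 39. Of the genes called higher, 264 were dim in EpiLCs alone and 22 in both groups, and of those called lower, 161 were dim in Ck-PGCLCs alone and 16 in both. The median change over all tested genes was -0.04. In 30.4% of tested genes both Ck-PGCLC arrays lay above both EpiLC arrays, and in 32.9% below, so separation of the arrays alone is common. The 29 gene lists hold 544 genes, of which 482 were tested, 109 called higher and 76 called lower. The lists and their members were chosen with earlier results of these data known, so their shares and medians are descriptions. The plot of list counts shows where these calls fell. Those of BMP pathway, primitive streak, cytokine signalling, early germ cell and naive pluripotency genes lay mostly on the higher side. Those of later germ cell, primed epiblast and cholesterol synthesis genes lay mostly on the lower side.

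**Figure D1:**
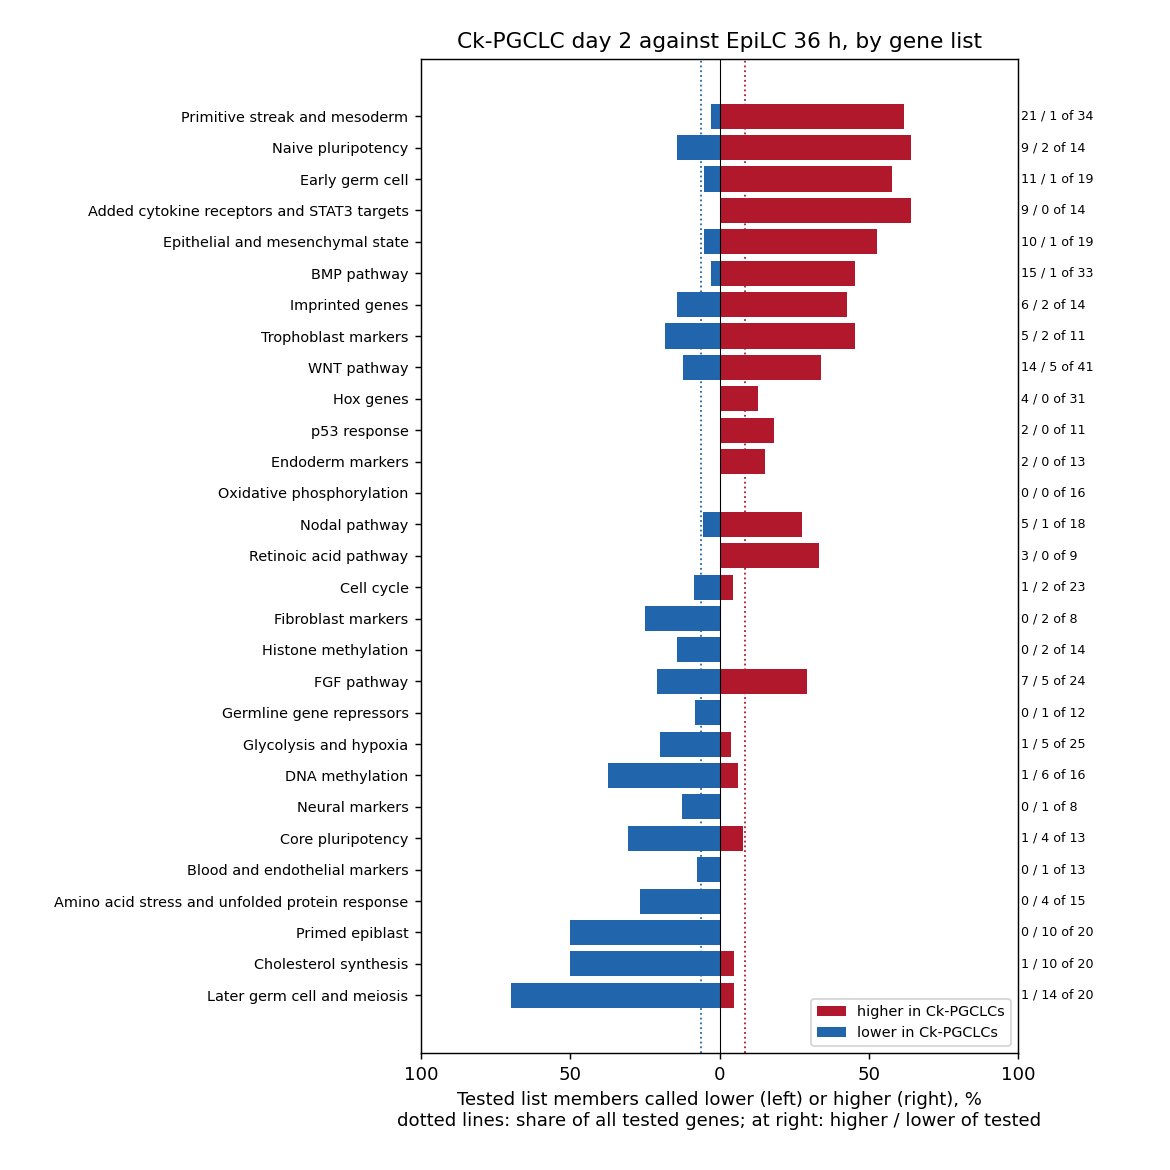
Share of the tested members of each gene list that was called higher (bars to the right) or lower (bars to the left) in Ck-PGCLCs at day 2 than in EpiLCs, in percent, sorted by the list's median change, with dotted lines at the share over all tested genes (8.42% higher, 6.06% lower). Streak and mesoderm genes had 21 of 34 members called higher, and later germ cell and meiosis genes had 14 of 20 called lower. The lists were chosen with earlier results of these data known.

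Direct transcriptional targets of BMP signalling showed the clearest rise among the signalling lists. Of 11 tested targets, 9 rose and none fell, with a median change of 4.09 against -0.04 over all tested genes. Since the lists were chosen with earlier results known, that comparison describes the list and is no test of it. Id1, the classical immediate target of SMAD1/5, stood at 12.86 and 12.86 in Ck-PGCLCs, against 6.86 and 6.62 in EpiLCs (change 6.12 ± 0.19 SE, adjusted p = 1.03e-13). Hand1, a transcription factor of extraembryonic and lateral mesoderm, stood at 9.78 and 9.98 in Ck-PGCLCs, against 3.71 and 3.3 in EpiLCs (change 6.38 ± 0.47, adjusted p = 7.22e-09). The homeobox gene Msx2 had 9.23 and 9.95 in Ck-PGCLCs, against 3.56 and 4.42 in EpiLCs (change 5.60 ± 0.42, adjusted p = 7.22e-09). For each of these genes the Ck-PGCLC arrays were both far above the EpiLC arrays, and for Hand1 the EpiLC arrays were both dim. Msx1, the paralogue of Msx2, reached 11.20 and 11.28 in Ck-PGCLCs, against 6.70 and 6.91 in EpiLCs (change 4.43 ± 0.19, adjusted p = 7.94e-12). Gata3 had 7.76 and 7.83 in Ck-PGCLCs, against 1.55 and 1.35 in EpiLCs (change 6.35). Gata2, its relative in trophectoderm and blood, had 7.98 and 7.82 in Ck-PGCLCs, against 3.52 and 4.36 in EpiLCs (change 3.96). Tbx3, a T-box factor shared with naive pluripotency, had 9.27 and 9.08 in Ck-PGCLCs, against 5.46 and 5.68 in EpiLCs (change 3.60). Id4 and Id3 rose too, by 4.09 and 2.09. Id2 was not called: it had 6.78 and 9.48 in Ck-PGCLCs, against 3.04 and 5.70 in EpiLCs (change 3.76 ± 1.65, adjusted p = 0.108), so that array 2 was the higher by about the same amount in both groups. With the replicate number as a block its adjusted p was 0.0254.

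Feedback inhibitors of the BMP pathway moved with the targets. Of 5 tested, 3 rose and none fell. The extracellular modulator gene Bmper had 7.88 and 8.24 in Ck-PGCLCs, against 3.35 and 3.31 in EpiLCs (change 4.73, adjusted p = 5.21e-06). The inhibitory SMAD gene Smad6 had 6.95 and 7.79 in Ck-PGCLCs, against 4.38 and 4.96 in EpiLCs (change 2.70, adjusted p = 6.21e-05). Bambi, which encodes a pseudoreceptor, had 9.55 and 9.81 in Ck-PGCLCs, against 8.54 and 7.82 in EpiLCs (change 1.50, adjusted p = 9.93e-05). Smad7 (change 0.61) and the BMP antagonist Chrd (change -0.16) were not called. Among 7 tested ligands, Bmp4 itself had 10.52 and 10.76 in Ck-PGCLCs, against 6.95 and 6.58 in EpiLCs (change 3.87 ± 0.27, adjusted p = 3.1e-09), and Bmp7 rose by 1.36. Bmp8b, a ligand that the extraembryonic ectoderm supplies in the embryo, was called lower at a change of -1.35 and an adjusted p of 0.0475. That call was lost when any one of the 4 arrays was left out, with adjusted p between 0.065 (without EpiLC array 1) and 0.249 (without EpiLC array 2), and the values without Ck-PGCLC array 1 or 2 were 0.199 and 0.109. Receptors and SMADs moved least, with 1 of 10 called: Smad1, the receptor-regulated SMAD of the pathway, had 8.98 and 9.13 in Ck-PGCLCs, against 7.55 and 7.43 in EpiLCs (change 1.56, adjusted p = 0.000486). The changes of Smad5, Smad4, Bmpr1a and Bmpr2 were 0.96, 0.72, 0.57 and 0.34.

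The direct contrast of Ck-PGCLCs with parental +Dox cells, in which the EpiLC level cancels, called 360 genes higher (2.32% of those tested) and 218 lower (1.41%). Of the 11 BMP targets, 8 were higher in Ck-PGCLCs in that contrast and none lower, and 3 of 5 inhibitors were higher, while Chrd was 3.14 lower. Id1 was 3.62 higher than in parental +Dox cells (9.32 and 9.16) and Hand1 was 7.39 higher than in parental +Dox cells (3.02 and 1.96). Hand1, Msx2, Gata2, Tbx3 and Bmp4 were not called between parental +Dox cells and EpiLCs, a contrast in which 7.23% of genes were called higher and 5.63% lower. Id1 and Msx1 were, at 2.50 and 1.48. Levels of all 4 groups are drawn in the plot of signalling genes.

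Hand1, Gata2 and Gata3 are also trophoblast genes, and so is Cdx2, the gene with the largest rise. The trophoblast list had 5 of 11 members called higher and 2 lower, with a summed linear signal of 2910 and 3130 in Ck-PGCLCs, against 1750 and 2490 in parental +Dox cells and 1120 and 1140 in EpiLCs. Elf5, which defines trophoblast stem cells, was near the dim level in both groups (4.07 and 3.97 in Ck-PGCLCs, against 3.99 and 3.84 in EpiLCs), Tpbpa of the spongiotrophoblast was not called (3.63 and 3.3 in Ck-PGCLCs, against 4.44 and 3.94 in EpiLCs), and Ascl2, required for spongiotrophoblast, fell by 2.60. The other member called lower, Krt7 (-1.36), lost its call without EpiLC array 1 (adjusted p = 0.129) and without Ck-PGCLC arrays 1 and 2 (0.0546 and 0.0665). The part of trophoblast-like cells in the rise of the shared genes was not tested beyond these values.

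**Figure D2:**
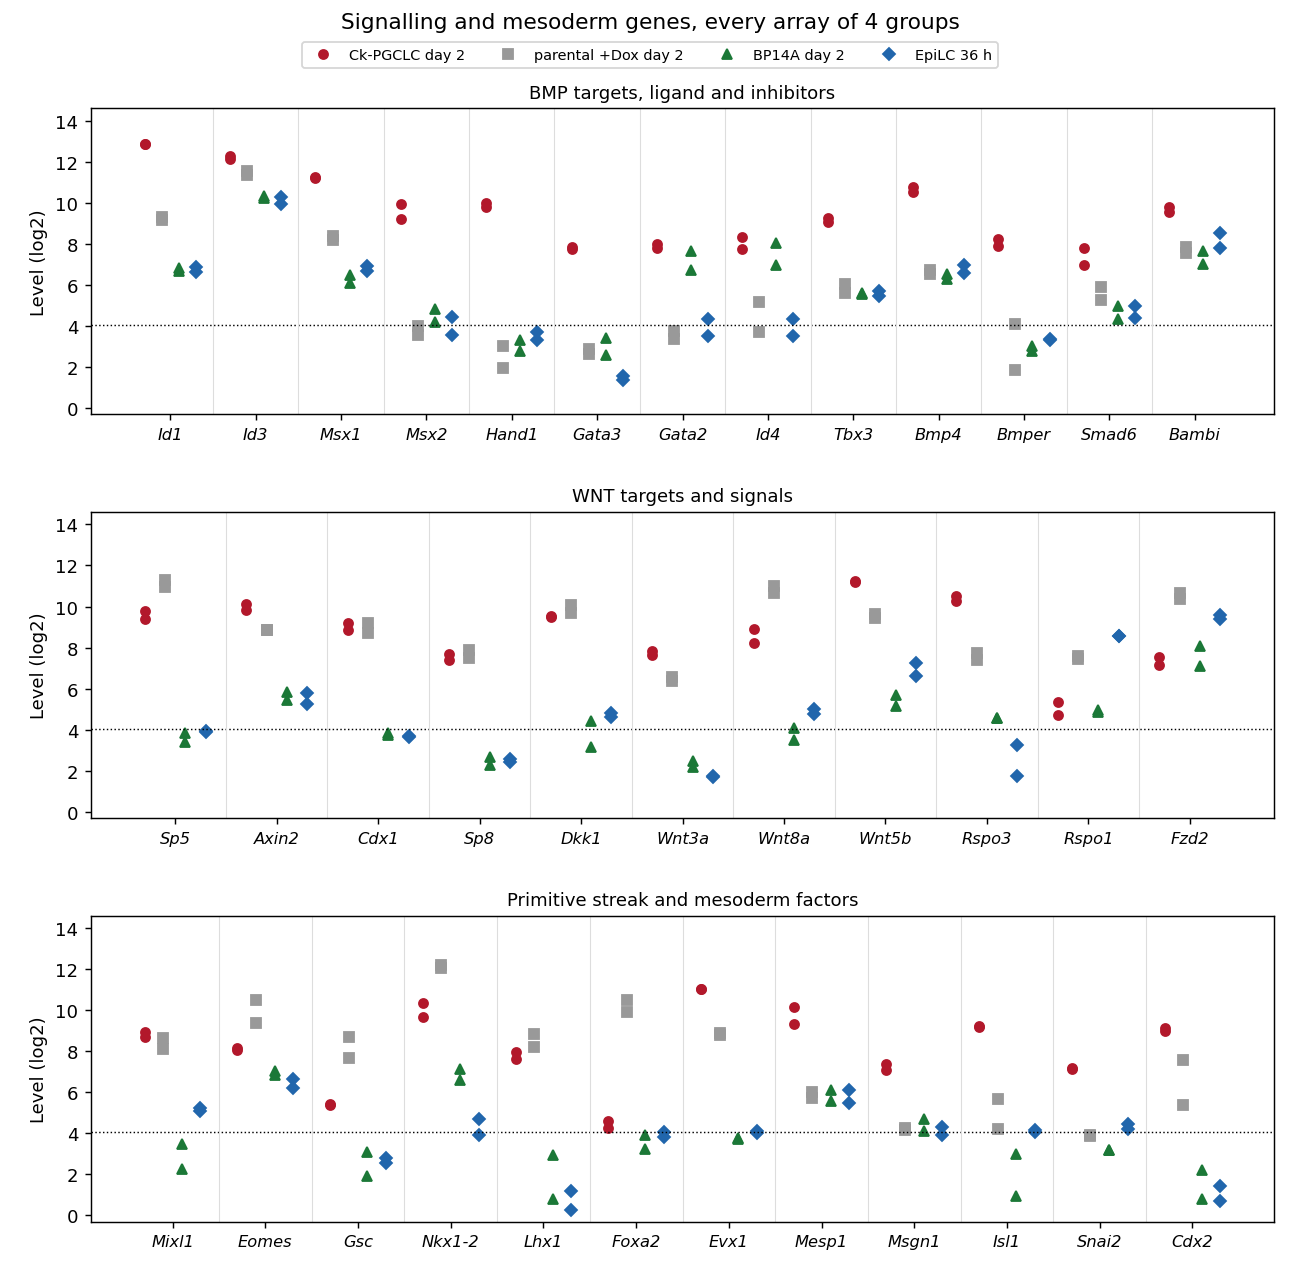
Log2 signal of each array for selected BMP, WNT and primitive streak genes in Ck-PGCLCs at day 2, parental +Dox cells at day 2, BP14A cells at day 2 and EpiLCs at 36 h (2 points per group, dotted line at the dim level of 4.05). Ck-PGCLCs stand above both other day 2 groups for Id1, Msx1 and Hand1, while for Sp5, Cdx1 and Dkk1 the parental +Dox points lie near or above them.

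WNT pathway genes rose as well, with 14 of 41 tested called higher and 5 lower. Of the 41, 16 were higher in parental +Dox cells than in EpiLCs. Of 8 tested WNT targets 4 rose and 1 fell, with a median change of 2.77. Sp5, a zinc finger factor induced directly by beta-catenin, had 9.80 and 9.39 in Ck-PGCLCs, against 3.92 and 3.88 in EpiLCs (change 5.70 ± 0.48, adjusted p = 3.79e-08). Cdx1, a posterior homeobox gene, had 9.21 and 8.84 in Ck-PGCLCs, against 3.68 and 3.63 in EpiLCs (change 5.37, adjusted p = 3.89e-11). Axin2, the feedback inhibitor used as a standard readout of the pathway, had 10.12 and 9.85 in Ck-PGCLCs, against 5.78 and 5.23 in EpiLCs (change 4.48 ± 0.51, adjusted p = 1.65e-06). In all of these the groups were far apart, and Sp8 rose by 5.03 in the same manner. Tcf7l1, the repressor member of the TCF family, fell by 1.21 (adjusted p = 0.000266), and Lef1 (change 1.05) was not called.

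The Sp5 promoter is shown because it was the only one of 7 WNT target promoters that held the TCF/LEF core letters CTTTGAT (in capitals), read on both strands. The window runs from 250 bases before to 50 bases after the start in RefSeq on GRCm38.p6, at chr2:70474673-70474972 on the plus strand, and the motif starts 104 bases before the gene's start. Over all 27025 genes with a promoter in this set, 4.3% held it, and the match is a description of these letters only.
Sp5: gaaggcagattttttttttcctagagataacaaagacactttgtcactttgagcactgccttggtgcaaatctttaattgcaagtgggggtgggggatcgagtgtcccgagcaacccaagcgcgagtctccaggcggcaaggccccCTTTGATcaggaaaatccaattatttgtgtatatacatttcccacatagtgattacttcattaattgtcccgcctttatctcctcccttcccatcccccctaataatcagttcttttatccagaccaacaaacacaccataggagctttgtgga

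WNT ligands and agonists that rose included genes of the early streak. Wnt3a, expressed in the streak and tail bud, had 7.63 and 7.81 in Ck-PGCLCs, against a dim 1.68 and 1.73 in EpiLCs (change 6.02 ± 0.99, adjusted p = 0.000129). Wnt5b, a mainly noncanonical ligand, had 11.23 and 11.19 in Ck-PGCLCs, against 7.25 and 6.60 in EpiLCs (change 4.29, adjusted p = 8.25e-09). Wnt8a had 8.90 and 8.21 in Ck-PGCLCs, against 4.76 and 5.0 in EpiLCs (change 3.68, adjusted p = 5.41e-09). In all, 5 of 10 tested ligands rose and none fell. Rspo3, a secreted agonist that stabilises WNT receptors, had the second largest rise of all named genes, with 10.25 and 10.50 in Ck-PGCLCs, against 1.72 and 3.27 in EpiLCs (change 7.88 ± 0.45, adjusted p = 2.29e-10). Its relative Rspo1 went the other way, with 4.71 and 5.36 in Ck-PGCLCs, against 8.56 and 8.58 in EpiLCs (change -3.54, adjusted p = 3.36e-06). Of the receptors, Fzd1 rose by 2.15, while Fzd2, at 7.14 and 7.52 in Ck-PGCLCs, against 9.41 and 9.57 in EpiLCs, fell by 2.16. Of 9 inhibitors 2 rose, and the secreted antagonist Dkk1 had 9.47 and 9.56 in Ck-PGCLCs, against 4.62 and 4.79 in EpiLCs (change 4.81, adjusted p = 3.32e-08).

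Against parental +Dox cells, none of the 8 WNT targets was called by limma, and 3 had an unadjusted p under 0.05. Sp5 was 1.51 lower in Ck-PGCLCs than in parental +Dox cells, at an adjusted p of 0.0818, Cdx1 was 0.06 higher and Axin2 was 1.12 higher (adjusted p = 0.955 and 0.285). These p-values do not show that the groups were alike. Over the whole list of 41 tested WNT genes, 2 were higher than in parental +Dox cells (Rspo3, by 2.80, and Wnt5b, by 1.69) and 5 were lower, among them Fzd2 (-3.19), Rspo1 (-2.48) and Wnt8a (-2.29). Of all tested genes, 2.32% were higher and 1.41% lower in that contrast. Parental +Dox cells were themselves higher than EpiLCs for 16 of the 41, beside 7.23% of all tested genes.

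Primitive streak and mesoderm genes made up the list with the most calls: 21 of 34 tested members rose, 1 fell and the median change was 2.35. The one that fell, the Notch ligand gene Dll1 (-1.28), lost its call without Ck-PGCLC array 1 (-0.92) and on the deposited values without further normalisation (-0.98). Lhx1, a LIM homeobox gene of the streak and anterior mesendoderm, had 7.62 and 7.98 in Ck-PGCLCs, against a dim 1.18 and 0.29 in EpiLCs (change 7.07 ± 0.68, adjusted p = 2.17e-07). Evx1, a homeobox gene of the posterior streak, had 11.02 and 11.04 in Ck-PGCLCs, against 4.02 and 4.13 in EpiLCs (change 6.95 ± 0.24, adjusted p = 4.71e-13). Its antisense neighbour Evx1os stood at 9.67 and 9.57 in Ck-PGCLCs, against 3.52 and 3.56 in EpiLCs. Both members of this gene pair were thus dim or close to it before induction and bright after. Cdx2, a caudal homeobox gene of the posterior embryo and the trophectoderm, had 9.13 and 9.01 in Ck-PGCLCs, against 0.69 and 1.45 in EpiLCs (change 8.0 ± 0.79, adjusted p = 2.72e-07). Mesp1, which marks nascent mesoderm, had 9.32 and 10.14 in Ck-PGCLCs, against 6.11 and 5.49 in EpiLCs (change 3.93, adjusted p = 3.92e-07). Mixl1 had 8.95 and 8.71 in Ck-PGCLCs, against 5.09 and 5.23 in EpiLCs (change 3.67, adjusted p = 0.000849). Msgn1, a regulator of presomitic mesoderm, rose by 3.14, and the LIM homeobox gene Isl1 had 9.20 and 9.21 in Ck-PGCLCs, against 4.06 and 4.15 in EpiLCs (change 5.10). Eomes rose by 1.68 and the organiser gene Gsc by 2.72.

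Among streak genes the direct contrast with parental +Dox cells divided the list: 9 of 34 were higher in Ck-PGCLCs and 4 were lower. Those higher included Mesp1 (by 3.87), Isl1 (4.26), Msgn1 (3.03), Snai2 (3.25) and Evx1 (2.21), which have roles in mesoderm and its migration. Those lower were Foxa2 (-5.81), Gsc (-2.78), Nkx1-2 (-2.12) and Eomes (-1.84), of which Foxa2, Gsc and Eomes act in anterior streak and endoderm. Foxa2 was not called between Ck-PGCLCs (4.24 and 4.60) and EpiLCs (4.06 and 3.81), while parental +Dox cells had 9.93 and 10.52. Cdx2 was 2.59 higher than in parental +Dox cells, whose arrays differed widely (7.56 and 5.39), and was not called (adjusted p = 0.066).

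Genes of the epithelial to mesenchymal transition moved on the mesenchymal side. Of 10 tested mesenchymal genes 8 rose and none fell, at a median of 2.60, beside 8.42% of all tested genes called higher. In parental +Dox cells 6 of the 10 were higher than in EpiLCs (7.23% of all). In Ck-PGCLCs 3 of the 10 were higher than in parental +Dox cells (2.32% of all). Of 9 epithelial genes 2 rose and 1 fell against EpiLCs. Cdh2 (N-cadherin) had 9.86 and 10.18 in Ck-PGCLCs, against 6.14 and 5.95 in EpiLCs (change 3.97), and the intermediate filament gene Vim had 12.43 and 12.59 in Ck-PGCLCs, against 9.90 and 10.12 in EpiLCs (change 2.50). Snai1, a repressor of E-cadherin, had 8.18 and 8.60 in Ck-PGCLCs, against 5.35 and 4.78 in EpiLCs (change 3.32, adjusted p = 3.05e-06). Cdh1 (E-cadherin) was not called, at 12.19 and 12.07 in Ck-PGCLCs, against 12.47 and 12.49 in EpiLCs, nor was Epcam (change -0.39). The simple keratin gene Krt8 rose by 3.58, with 12.09 and 12.07 in Ck-PGCLCs, against 8.53 and 8.47 in EpiLCs.

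Of 31 tested Hox genes 4 rose and none fell, beside 8.42% of all genes called higher. With the mean of all probe sets 7 rose. Hoxb1 had 10.63 and 11.01 in Ck-PGCLCs, against 3.71 and 3.54 in EpiLCs (change 7.20, adjusted p = 8.83e-10). Hoxb2 had 9.42 and 9.51 in Ck-PGCLCs, against 3.74 and 3.49 in EpiLCs (change 5.85). Hoxa2 had 6.69 and 6.32 in Ck-PGCLCs, against 1.49 and 2.31 in EpiLCs (change 4.60). The EpiLC arrays were dim for all of these 3. Hoxd9 was the one that also differed from parental +Dox cells, by 3.10, with 6.92 and 6.98 in Ck-PGCLCs, against 4.42 and 4.52 in EpiLCs. Hoxa3 was not called at -0.36, but the mean of all its probe sets gave a change of 1.31 (adjusted p = 0.00098), so its direction depends on the probe set. Cyp26a1, which degrades retinoic acid and is itself induced by it, had 9.0 and 9.29 in Ck-PGCLCs, against 4.47 and 5.26 in EpiLCs (change 4.28, adjusted p = 1.21e-08), and 3 of 9 retinoic acid genes rose, 2 of 9 without EpiLC array 1, where Rarb was lost (adjusted p = 0.0658).

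Nodal and FGF genes were divided. Over all tested genes, 8.42% were called higher and 6.06% lower. In the Nodal list 5 of 18 rose and 1 fell, with a median of 0.09. The activin antagonist gene Fst had 11.25 and 11.35 in Ck-PGCLCs, against 8.07 and 7.83 in EpiLCs (change 3.35), Lefty2, a Nodal inhibitor, rose by 1.68, and Gdf3, a ligand of the epiblast, fell by 2.10. Nodal was not called (7.69 and 8.84 in Ck-PGCLCs, against 7.28 and 8.39 in EpiLCs). Against parental +Dox cells 1 of the 18 was higher and 5 were lower, beside 2.32% and 1.41% of all tested genes. Of 6 Nodal targets 5 were lower in Ck-PGCLCs in that contrast, and 5 were higher in parental +Dox cells than in EpiLCs. In the FGF list 7 of 24 rose and 5 fell, and without EpiLC array 1 the counts were 8 and 4. Fgf8, the streak ligand, had 8.59 and 9.31 in Ck-PGCLCs, against 3.15 and 2.96 in EpiLCs (change 5.90, adjusted p = 1.46e-08). Fgf4 went the other way, with 7.44 and 7.63 in Ck-PGCLCs, against 10.96 and 10.90 in EpiLCs (change -3.39, adjusted p = 3.99e-09), as did Fgf5. The immediate early gene Fos had 11.61 and 11.98 in Ck-PGCLCs, against 8.22 and 6.05 in EpiLCs (change 4.66 ± 0.93, adjusted p = 0.00078), where the EpiLC arrays differed most.

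Receptors of the added cytokines and targets of STAT3, the factor downstream of LIF, had 9 of 14 tested members called higher and none lower. Lifr, the LIF receptor, had 8.91 and 9.20 in Ck-PGCLCs, against 7.09 and 7.01 in EpiLCs (change 2.01, adjusted p = 1.54e-07), and its partner Il6st (gp130) had 9.56 and 9.70 in Ck-PGCLCs, against 7.02 and 6.95 in EpiLCs (change 2.65, adjusted p = 3e-09). Kit, the receptor of SCF, had 8.02 and 8.08 in Ck-PGCLCs, against 6.67 and 6.48 in EpiLCs (change 1.47, adjusted p = 0.000222), and Egfr was not called (change -0.23). Stat3 had 9.42 and 9.27 in Ck-PGCLCs, against 8.04 and 7.68 in EpiLCs (change 1.48, adjusted p = 1.87e-06). Socs3, the feedback inhibitor that STAT3 induces, had 7.48 and 7.65 in Ck-PGCLCs, against 5.16 and 5.71 in EpiLCs (change 2.13, adjusted p = 0.00123), and Junb and Bcl3 rose by 3.22 and 2.46. Each of these genes had both Ck-PGCLC arrays above both EpiLC arrays. With the mean of all probe sets of a gene, the changes shrank below the limits for Il6st (0.92, adjusted p = 0.0928), Lifr (0.64, adjusted p = 0.0211), Kit (0.79, adjusted p = 0.266) and Stat3 (0.70, adjusted p = 0.00713), which left 5 of the 14 called. Against parental +Dox cells 3 of the 14 were higher, namely Bcl3 (by 2.09), Lifr (1.86) and Stat3 (1.31).

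Early germ cell genes rose, led by the 3 factors of the core network. Prdm14 had 8.44 and 8.78 in Ck-PGCLCs, against a dim 2.90 and 3.06 in EpiLCs (change 5.63 ± 0.25, adjusted p = 1.53e-11). Tfap2c had 9.87 and 9.94 in Ck-PGCLCs, against 4.82 and 5.29 in EpiLCs (change 4.85 ± 0.29, adjusted p = 5.29e-10). Prdm1 had 8.51 and 8.52 in Ck-PGCLCs, against 3.78 and 4.64 in EpiLCs (change 4.30 ± 0.33, adjusted p = 9.46e-09). The Ck-PGCLC arrays were almost equal for each factor and stood far above both EpiLC arrays. Dnd1, an RNA-binding protein that protects germ cell survival, had 8.69 and 8.77 in Ck-PGCLCs, against 6.03 and 6.23 in EpiLCs (change 2.60, adjusted p = 7.98e-07). Dppa3 (stella), a classical marker of specified germ cells, had 9.34 and 9.69 in Ck-PGCLCs, against 8.41 and 8.20 in EpiLCs, a smaller rise (change 1.21 ± 0.25, adjusted p = 0.00121). Tcl1 had 7.58 and 7.93 in Ck-PGCLCs, against 5.81 and 5.5 in EpiLCs (change 2.10). The surface protein genes Ifitm1 and Ifitm3 rose by 2.41 and 1.56, and the alkaline phosphatase gene Alpl by 1.48. Rhox5, an X-linked homeobox gene, fell instead, to 8.64 and 9.18 in Ck-PGCLCs, against 12.60 and 12.76 in EpiLCs (change -3.76, adjusted p = 7.75e-08). In all, 11 of 19 tested members rose, 1 fell and 7 were not called, Sall4, Prmt5 and Lin28a among them, and 12 rose without EpiLC array 1, where Itgb3 (1.36, adjusted p = 0.0494) was added.

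Ck-PGCLCs were higher than parental +Dox cells for 10 of 19 and lower for none. Prdm14 was 5.75 higher than in parental +Dox cells (2.87 and 2.85), Tfap2c 2.76 higher, Prdm1 2.89 higher and Dnd1 2.00 higher. Dppa3 was 3.74 higher than in parental +Dox cells, which had 5.43 and 6.10 (change from EpiLCs -2.54), and Rhox9 was 4.43 higher, although it was not called against EpiLCs (change -0.03). Kit was not called in that contrast (-0.41, adjusted p = 0.519). Against BP14A cells, a contrast in which 7.01% of genes were called higher and 5.55% lower, 9 of 19 were lower in Ck-PGCLCs and none of Prdm14, Dnd1, Ifitm1 and Ifitm3 was called. BP14A had Dppa3 at 12.91 and 12.70 (Ck-PGCLCs 3.29 lower), Tcl1 at 10.42 and 10.43 (2.67 lower) and Kit at 10.82 and 10.68 (2.70 lower). Prdm1, Prdm14 and Tfap2c signals in BP14A may include the transgenes, so their contrast there compares no endogenous levels. At day 4, Ck-PGCLCs had a mean Dppa3 level of 12.71.

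**Figure D3:**
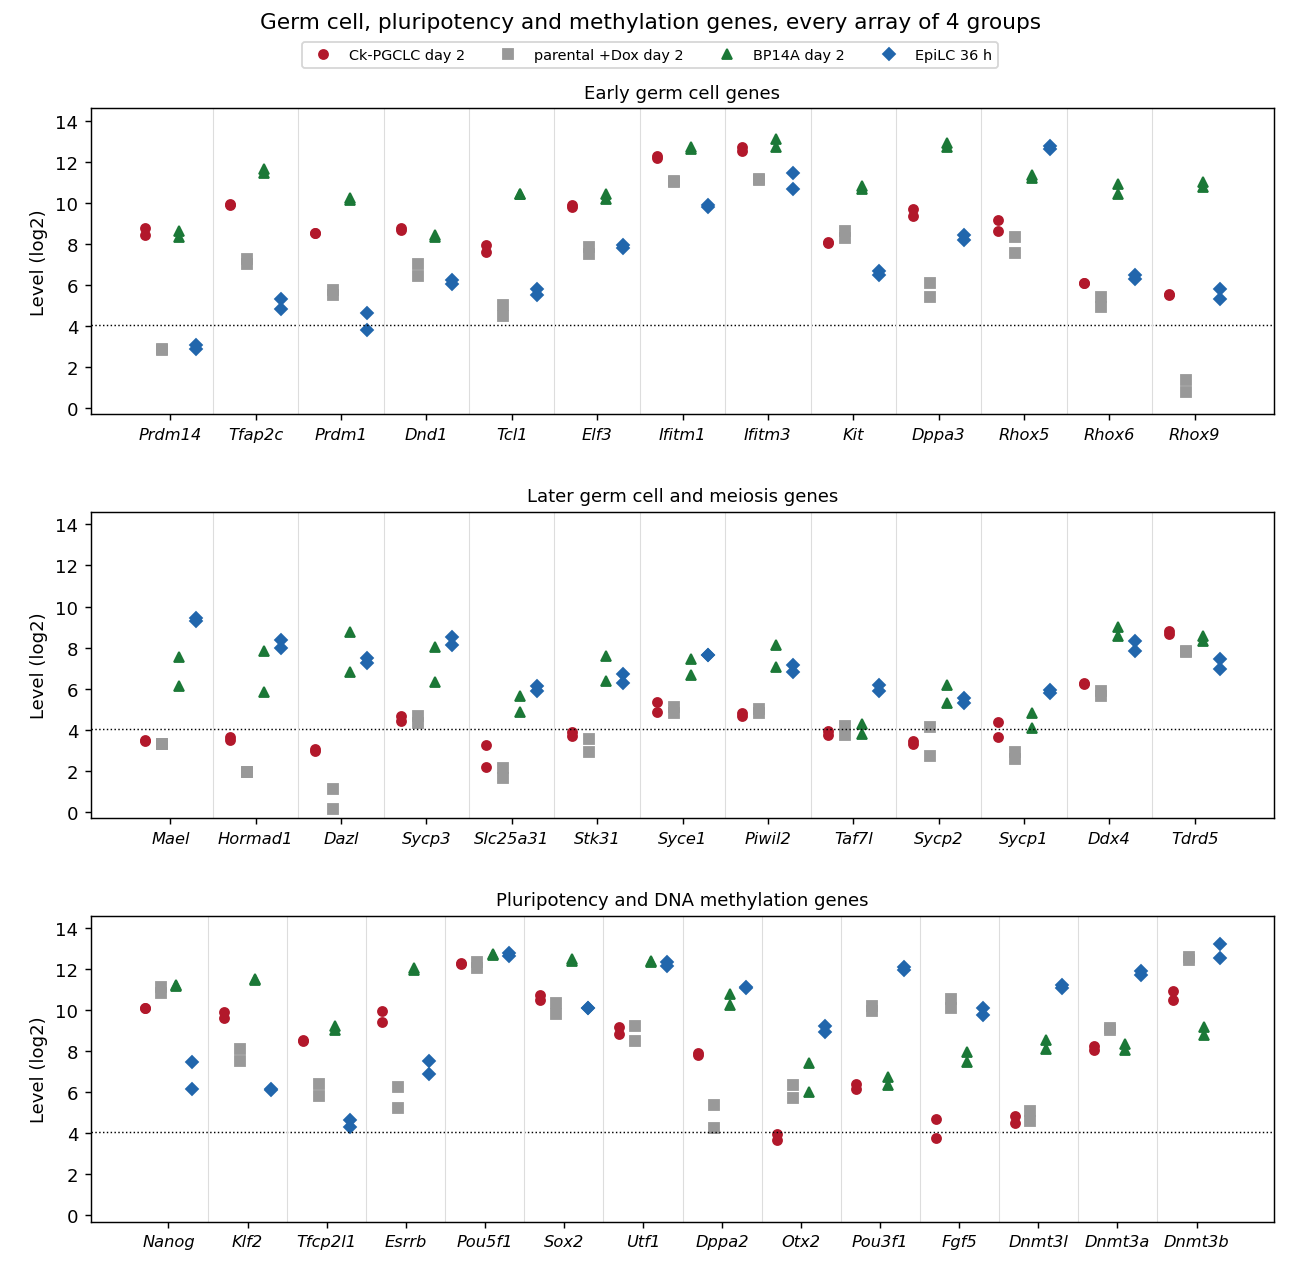
Log2 signal of each array for early germ cell genes, later germ cell and meiosis genes, and pluripotency and DNA methylation genes in Ck-PGCLCs, parental +Dox cells and BP14A cells at day 2 and in EpiLCs at 36 h (2 points per group, dotted line at the dim level of 4.05). Prdm14 is at 8.44 and 8.78 in Ck-PGCLCs and below 3.1 in parental +Dox cells and EpiLCs, while Mael and Dnmt3l are high in EpiLCs and lower in every day 2 group.

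Genes of later germ cells and meiosis moved opposite to the early set: 14 of 20 tested members fell, 1 rose and the median change was -1.94. Mael, which acts in transposon silencing with the piRNA pathway, had 3.49 and 3.43 in Ck-PGCLCs, against 9.46 and 9.29 in EpiLCs (change -5.92 ± 0.34, adjusted p = 2.25e-10). Hormad1, a protein of unsynapsed meiotic chromosome axes, had 3.64 and 3.49 in Ck-PGCLCs, against 8.38 and 7.99 in EpiLCs (change -4.62, adjusted p = 6.31e-08). Dazl, an RNA-binding protein that licenses germ cells for meiosis, had 3.08 and 2.94 in Ck-PGCLCs, against 7.47 and 7.27 in EpiLCs (change -4.36 ± 0.55, adjusted p = 6.68e-06). All 3 ended below the dim level in both Ck-PGCLC arrays. Sycp3, a component of the synaptonemal complex, had 4.41 and 4.66 in Ck-PGCLCs, against 8.50 and 8.14 in EpiLCs (change -3.78, adjusted p = 1.82e-06). Slc25a31, a nucleotide carrier of testis mitochondria, had 3.26 and 2.19 in Ck-PGCLCs, against 6.14 and 5.89 in EpiLCs (change -3.29, adjusted p = 7.52e-07). Ddx4 (Vasa), an RNA helicase of germ cells, fell by 1.80, with 6.29 and 6.24 in Ck-PGCLCs, against 8.30 and 7.83 in EpiLCs. Stk31, Syce1, Piwil2, Taf7l, Sycp2 and Sycp1 fell by 1.86 to 2.70. Tdrd5, a tudor-domain gene of the piRNA pathway, was called higher (change 1.51, adjusted p = 0.00729), a call lost without EpiLC array 2 (adjusted p = 0.0794) or without Ck-PGCLC array 1 (0.0528). Without EpiLC array 1, 12 of the 20 were called lower, since Smc1b and Tdrkh were lost (adjusted p = 0.461 and 0.0543). Both were also lost without Ck-PGCLC array 2 (0.401 and 0.0956), and Tdrkh without EpiLC array 2 (0.0522).

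Promoters of these genes are shown because the letters CACGTG, an E-box that several basic helix-loop-helix factors bind, occurred in 12 of the 23 later germ cell genes with a promoter (52.2%), against 8.1% of all 27025. Among those that fell it was in 8 of 13, and among those tested and not called in 3 of 5. The same letters were in 5 of 16 cholesterol synthesis genes (31.2%), 1 of 7 WNT targets and 1 of 8 BMP targets. Both strands were read (the motif is a palindrome), over the same window from 250 bases before to 50 after the start. This motif and the TCF/LEF letters were kept for display after the counts were seen. E2F-type, SREBP, SMAD, STAT, AP-2, octamer and interferon-response motifs had also been looked at and were not kept for display. Of these, counts are given only for the SMAD-type letters GGCGCC. They were in 4 of 8 BMP targets, but also in 4 of 7 WNT targets, 6 of 23 later germ cell genes, 3 of 16 cholesterol synthesis genes and 13.4% of all. No test was made, and a match shows no binding. The windows, from RefSeq on GRCm38.p6, are those of Mael at chr1:166238695-166238994 (minus strand), Hormad1 at chr3:95559427-95559726, Sycp3 at chr10:88459337-88459636 and Slc25a31 at chr3:40708621-40708920 (plus strand), with CACGTG in capitals.
Mael: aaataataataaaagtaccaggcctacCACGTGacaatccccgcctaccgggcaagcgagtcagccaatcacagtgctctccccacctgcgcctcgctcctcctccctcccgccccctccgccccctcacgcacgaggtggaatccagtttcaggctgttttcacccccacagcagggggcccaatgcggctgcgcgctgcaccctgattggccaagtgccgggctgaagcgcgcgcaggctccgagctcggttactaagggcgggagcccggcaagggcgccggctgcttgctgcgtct
Hormad1: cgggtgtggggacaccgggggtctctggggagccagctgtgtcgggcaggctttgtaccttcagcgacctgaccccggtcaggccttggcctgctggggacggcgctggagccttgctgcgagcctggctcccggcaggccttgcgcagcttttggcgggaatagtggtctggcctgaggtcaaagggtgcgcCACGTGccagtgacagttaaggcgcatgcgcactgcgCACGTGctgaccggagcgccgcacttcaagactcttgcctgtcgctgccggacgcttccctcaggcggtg
Sycp3: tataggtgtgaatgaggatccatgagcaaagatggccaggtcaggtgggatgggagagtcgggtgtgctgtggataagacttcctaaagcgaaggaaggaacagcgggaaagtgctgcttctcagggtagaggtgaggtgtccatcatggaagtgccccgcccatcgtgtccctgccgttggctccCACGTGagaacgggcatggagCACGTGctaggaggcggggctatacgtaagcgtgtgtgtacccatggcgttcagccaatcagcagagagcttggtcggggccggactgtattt
Slc25a31: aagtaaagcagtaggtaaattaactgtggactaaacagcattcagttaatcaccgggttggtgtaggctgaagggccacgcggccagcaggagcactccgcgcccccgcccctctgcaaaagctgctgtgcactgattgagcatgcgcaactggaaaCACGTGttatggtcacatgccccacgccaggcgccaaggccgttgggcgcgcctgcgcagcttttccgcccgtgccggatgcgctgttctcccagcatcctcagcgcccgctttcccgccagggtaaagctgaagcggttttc
The Mael motif starts 223 bases before the gene's start and that of Slc25a31 starts 93 before it. Hormad1 holds it at 57 and 20 bases before the start, and Sycp3 at 64 and 43.

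The contrast of parental +Dox cells with EpiLCs, which shares the EpiLC arrays, called 13 of the 20 later germ cell genes lower in parental +Dox cells. The direct contrast called 3 of 20 higher in Ck-PGCLCs than in parental +Dox cells and none lower. Dazl was 2.39 higher in Ck-PGCLCs than in parental +Dox cells (1.12 and 0.12), Hormad1 1.62 higher (1.94 and 1.96) and Sycp1 1.27 higher, all between signals that were dim in both groups or nearly so. In BP14A, Dazl had 8.74 and 6.80, and Ck-PGCLCs were 4.76 lower.

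Naive pluripotency genes mostly rose. Of 14 tested, 9 rose and 2 fell, with a median of 2.18. Tfcp2l1, a transcription factor of naive ESCs, had 8.52 and 8.55 in Ck-PGCLCs, against 4.64 and 4.31 in EpiLCs (change 4.06, adjusted p = 3.58e-09). Klf2 had 9.61 and 9.90 in Ck-PGCLCs, against 6.14 and 6.11 in EpiLCs (change 3.63, adjusted p = 2.52e-08). Esrrb, an orphan nuclear receptor that WNT relieves from TCF7L1 repression, had 9.44 and 9.95 in Ck-PGCLCs, against 6.91 and 7.53 in EpiLCs (change 2.48, adjusted p = 0.00151). Each had its 2 groups clearly apart. Nr5a2 and Klf5 rose by 2.36 and 2.00, the first only by 0.68 with the mean of its probe sets (adjusted p = 0.0321). Klf4 had 4.69 and 5.78 in Ck-PGCLCs, against 3.92 and 1.31 in EpiLCs, and its call (change 2.62, adjusted p = 0.00934) was lost without EpiLC array 2 (adjusted p = 0.229) or Ck-PGCLC array 2 (0.119). Zfp42 (Rex1) was called lower at -1.05, with 8.18 and 8.58 in Ck-PGCLCs, against 9.37 and 9.49 in EpiLCs, and missed 2-fold without EpiLC array 2 (-0.99) or Ck-PGCLC array 1 (-0.85). Nr0b1 (change -1.39, adjusted p = 0.0416) lost its call without any one array, with adjusted p of 0.118 and 0.144 without EpiLC arrays 1 and 2 and 0.202 and 0.0863 without Ck-PGCLC arrays 1 and 2. Against parental +Dox cells 11 of the 14 were higher and none lower, among them Esrrb (by 3.95), Nr5a2 (3.06), Nr0b1 (2.70), Dppa5a (2.65) and Zfp42 (2.51). Against BP14A, 8 of the 14 were lower in Ck-PGCLCs, among them Nr5a2 (-2.36), Esrrb (-2.32), Klf2 (-1.76) and Zfp42 (-1.66), and 2 were higher, Tbx3 (3.57) and Klf4 (2.22).

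Core pluripotency genes showed one large rise. Nanog had 10.10 and 10.13 in Ck-PGCLCs, against 6.14 and 7.47 in EpiLCs (change 3.31 ± 0.45, adjusted p = 1.4e-05), and was not called against parental +Dox cells (-0.85, adjusted p = 0.403). Pou5f1 (Oct4) was not called, at 12.29 and 12.27 in Ck-PGCLCs, against 12.66 and 12.80 in EpiLCs, nor was Sox2 (10.51 and 10.76 in Ck-PGCLCs, against 10.13 and 10.12 in EpiLCs). Utf1 fell to 8.86 and 9.19 in Ck-PGCLCs, against 12.17 and 12.34 in EpiLCs (change -3.23). Dppa2 and Dppa4, which act at bivalent and early embryonic genes, fell by 3.25 and 2.37. Both were still higher than in parental +Dox cells, by 3.05 and 1.53. In this list 1 of 13 rose and 4 fell, beside 8.42% of all tested genes called higher and 6.06% lower.

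Primed epiblast genes fell: 10 of 20 tested were lower, none was higher and the median change was -1.05. Pou3f1 (Oct6) had 6.16 and 6.41 in Ck-PGCLCs, against 12.09 and 11.98 in EpiLCs (change -5.75 ± 0.39, adjusted p = 2.04e-09). Fgf5 had 4.68 and 3.78 in Ck-PGCLCs, against 10.10 and 9.76 in EpiLCs (change -5.70, adjusted p = 4.51e-09). Otx2, a regulator of the primed state whose loss favours germ cell fate, had 3.67 and 3.98 in Ck-PGCLCs, against 9.21 and 8.94 in EpiLCs (change -5.25 ± 0.39, adjusted p = 7.27e-09). The EpiLC arrays were bright for each of these and the Ck-PGCLC arrays dim or nearly dim for Fgf5 and Otx2. Foxd3 had 3.87 and 4.55 in Ck-PGCLCs, against 9.19 and 8.58 in EpiLCs (change -4.68). Pim2, Zic5 and Fgf15 fell by 2.86, 2.80 and 2.29, while Sox3, Sox4, Sox11, Zic2, Etv4 and Etv5 were not called. Sox3 passed the limits without EpiLC array 1 (-1.02, adjusted p = 0.0244) or Ck-PGCLC array 2 (-1.01, adjusted p = 0.0286), and 11 of the 20 were lower without EpiLC array 1. In the direct contrast 6 of 20 were lower in Ck-PGCLCs than in parental +Dox cells: Fgf5 by 6.11, Pou3f1 by 3.80, Pim2 by 2.70, Otx2 by 2.21, Zic5 by 1.93 and Fgf15 by 1.40. Fgf5 was at 10.13 and 10.56 in parental +Dox cells, where its change from EpiLCs was 0.41 and not called.

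All 3 de novo genes of the DNA methylation list were called lower, with a median change of -3.66. Dnmt3l, the catalytically inactive cofactor, had 4.51 and 4.84 in Ck-PGCLCs, against 11.06 and 11.25 in EpiLCs (change -6.48 ± 0.26, adjusted p = 4.37e-12). Dnmt3a had 8.06 and 8.25 in Ck-PGCLCs, against 11.74 and 11.89 in EpiLCs (change -3.66, adjusted p = 7.69e-09). Dnmt3b had 10.50 and 10.94 in Ck-PGCLCs, against 12.53 and 13.23 in EpiLCs (change -2.16 ± 0.61, adjusted p = 0.0121), a call lost without EpiLC array 2 (0.107) or Ck-PGCLC array 1 (0.0883). The arrays of the 2 groups did not overlap for any of these 3 genes. Of 5 maintenance genes 1 was called lower, and of 8 oxidation and repair genes 2 were lower and 1 was higher. The falls beyond the de novo genes were those of Gadd45a (-1.49), Tet1 (-1.08) and Hells (-1.07). The calls of Tet1 and Hells were lost when single arrays were left out. Dnmt1 changed by 0.18 and its partner Uhrf1, at 8.92 and 9.71 in Ck-PGCLCs, against 9.63 and 10.73 in EpiLCs, by -0.87 (adjusted p = 0.417), and neither was called. Over the list of 16, 1 was higher and 6 lower, while without EpiLC arrays 1 and 2 in turn the counts lower were 5 and 4, and without Ck-PGCLC arrays 1 and 2 they were 3 and 4. None of the 16 was called by limma between Ck-PGCLCs and parental +Dox cells (3 had an unadjusted p under 0.05), where Dnmt3l stood at 4.60 and 5.11 and Dnmt3b at 12.46 and 12.61. The Dnmt3b difference there was -1.82 (adjusted p = 0.105).

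Of 14 histone methylation genes 2 were lower and none higher, beside 6.06% of all genes called lower, namely Kdm4c (-1.61) and the PRC2 partner Jarid2 (-1.11, and -0.96 on the deposited values without further normalisation, so under 2-fold there), and Ehmt1 (-0.16), Ehmt2 (0.02) and Ezh2 (0.14) were not called. Of 12 genes of the MAX and PRC1.6 complexes, which repress germline genes in ESCs, 1 was lower, the MAX partner Myc (6.18 and 6.85 in Ck-PGCLCs, against 7.50 and 9.22 in EpiLCs), and its adjusted p of 0.00506 became 0.152 without EpiLC array 2 and 0.0713 without Ck-PGCLC array 1. Of 14 imprinted genes 6 were higher and 2 lower. With the mean of all probe sets 2 of 14 were higher, as Plagl1 (0.85, adjusted p = 0.0665), Impact (0.65, adjusted p = 0.117), Grb10 (0.68, adjusted p = 0.0218) and Peg3 (0.22, adjusted p = 0.807) were lost. Phlda2, a growth-restraining gene of the placenta, had 12.37 and 12.52 in Ck-PGCLCs, against 11.14 and 10.99 in EpiLCs (change 1.38), and was 2.98 higher than in parental +Dox cells. Cdkn1c, a cell cycle inhibitor, rose by 2.19 and Mest fell by 2.10.

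Among metabolic genes most calls fell in sterol synthesis. Beside them, 8.42% of all tested genes were called higher and 6.06% lower. Of 20 cholesterol synthesis genes 10 fell and 1 rose, with a median of -1.21. Dhcr7, the last enzyme of the pathway, had 6.52 and 6.53 in Ck-PGCLCs, against 8.65 and 8.29 in EpiLCs (change -1.95). Lss, Mvd, Sqle and Idi1 fell by 1.67, 1.64, 1.47 and 1.30. Ebp, a sterol isomerase, was the exception, with 10.36 and 10.19 in Ck-PGCLCs, against 7.78 and 7.85 in EpiLCs (change 2.46). Some of these changes were small: 9 were called lower without EpiLC array 1, where Nsdhl (-0.84) missed 2-fold, as it did without Ck-PGCLC array 2 (-0.82), and 8 on the deposited values. Insig1 lost its call without EpiLC array 2 or Ck-PGCLC array 1 (adjusted p = 0.0918 and 0.0865). Against parental +Dox cells 1 of the 20 was called, Cyp51, which was 1.08 lower, and 12 of the 20 had an unadjusted p under 0.05. None of 16 oxidative phosphorylation genes was called by limma, with changes of -0.13 to 0.44, and 2 had an unadjusted p under 0.05. In the glycolysis and hypoxia list 1 of 25 was higher and 5 were lower, but the counts were 2 and 3 without EpiLC array 1, 1 and 7 without EpiLC array 2, and 1 and 3 without Ck-PGCLC array 1. The glucose transporter gene Slc2a3 had 13.07 and 12.91 in Ck-PGCLCs, against 10.63 and 10.50 in EpiLCs (change 2.42), and Slc16a3, a lactate exporter, fell by 2.62.

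Cell cycle genes held 3 calls among 23 tested members, beside 14.5% of all genes called in either direction. None of 13 S and G2/M genes was called by limma (2 had an unadjusted p under 0.05), and 1 of 10 other cycle genes was higher (Cdkn1c) and 2 were lower, Cdkn2b by 1.96 and Ccne1 by 1.23. Of 11 p53 targets 2 were higher, beside 8.42% of all tested genes. They were Perp (3.81) and Btg2 (2.06, and 0.94 with the mean of its probe sets). Of 15 amino acid stress and unfolded protein genes 4 were lower and none higher, beside 6.06% of all genes called lower, led by Chac1 (7.55 and 7.74 in Ck-PGCLCs, against 11.10 and 10.35 in EpiLCs; change -3.08) and Trib3 (change -3.04), both targets of ATF4. Nupr1, a further stress gene, was among the 15 largest falls, at 5.73 and 6.15 in Ck-PGCLCs, against 11.04 and 10.27 in EpiLCs. The call of Atf3 (change -1.19) was lost without EpiLC array 1 (adjusted p = 0.416) and without Ck-PGCLC arrays 1 and 2 (0.0722 and 0.0863).

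Markers of other cell types were read as a check. Of all tested genes 8.42% were called higher and 6.06% lower, and several counts below are near those shares. Of 13 endoderm markers 2 rose, Sox7 by 1.50 and Gata6 by 1.35, while Sox17, Afp and Ttr changed by 0.34, 0.20 and 0.06. The summed linear endoderm signal was 523 and 521 in Ck-PGCLCs, against 1600 and 2090 in parental +Dox cells and 524 and 428 in EpiLCs. Sox7 lost its call without EpiLC array 2 (adjusted p = 0.0665) or Ck-PGCLC array 1 (0.0803). Of 8 neural markers 1 fell, Sox1 (1.79 and 2.06 in Ck-PGCLCs, against 4.46 and 4.85 in EpiLCs). Parental +Dox cells had Sox1 at 7.95 and 6.76, and Ck-PGCLCs were 5.43 lower. Of 13 blood and endothelial markers 1 fell (Tek, -2.14), and of 8 fibroblast markers 2 fell, Dcn and Thy1. Dcn, a proteoglycan gene of connective tissue, had 2.42 and 2.36 in Ck-PGCLCs, against 8.98 and 9.06 in EpiLCs (change -6.63), and the summed fibroblast signal was 214 and 247 in Ck-PGCLCs, against 912 and 890 in EpiLCs. The ESCs were feeder-free by their labels, and what share of the EpiLC signal other cells gave was not tested.

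The 30 largest changes held genes beyond the lists. Frmd4b, a FERM domain scaffold gene, had 10.64 and 10.66 in Ck-PGCLCs, against 4.85 and 4.37 in EpiLCs. Rtl8c, a retrotransposon-derived gene, had 10.56 and 10.14 in Ck-PGCLCs, against 4.23 and 4.73 in EpiLCs. The metal-binding protein gene Mt3 had the largest fall, to 2.55 and 0.21 in Ck-PGCLCs, against 8.95 and 9.43 in EpiLCs. Eras, a constitutively active RAS of ESCs, had 5.63 and 5.29 in Ck-PGCLCs, against 10.48 and 10.12 in EpiLCs, while parental +Dox cells had 9.73 and 10.26. Nlrp4f, an NLR family gene known from oocytes, stood at 2.76 and 2.44 in Ck-PGCLCs, against 7.58 and 7.27 in EpiLCs, and Tesc, a calcium-binding protein gene, at 3.42 and 2.48 in Ck-PGCLCs, against 8.12 and 7.88 in EpiLCs. Cd6, Mlana, Slc35d3 and Tnfsf11 completed the 15 largest falls, and Gbp2 and Psmb8, of the interferon response, belonged to the 15 largest rises.

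Over all tested genes, 245 of the 1305 called higher than in EpiLCs were also higher than in parental +Dox cells, 1037 were not called against them and 23 were lower. Of the 939 called lower than in EpiLCs, 92 were also lower than in parental +Dox cells, 815 were not called and 32 were higher. The EpiLC arrays do not enter the second contrast. In the plot against parental +Dox cells, 12 of 33 BMP genes were called above 0 on the vertical axis and 3 below. Of 19 early germ cell genes 10 were called above and none below, and of 41 WNT genes 2 above and 5 below. Against BP14A cells 1086 genes were higher and 860 lower, and 24 of 34 streak and mesoderm genes were higher in Ck-PGCLCs, Evx1 by 7.27, Hoxb1 of the Hox list by 8.46 and Id1 of the BMP list by 6.11. BP14A had these at 3.73 and 3.78 (Evx1), 2.45 and 2.27 (Hoxb1) and 6.67 and 6.83 (Id1), near the EpiLC levels. Between BP14A cells and EpiLCs 6.25% of genes were called higher and 5.36% lower, and among BMP targets Gata2 and Id4 were higher in BP14A too, by 3.27 and 3.57.

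**Figure D4:**
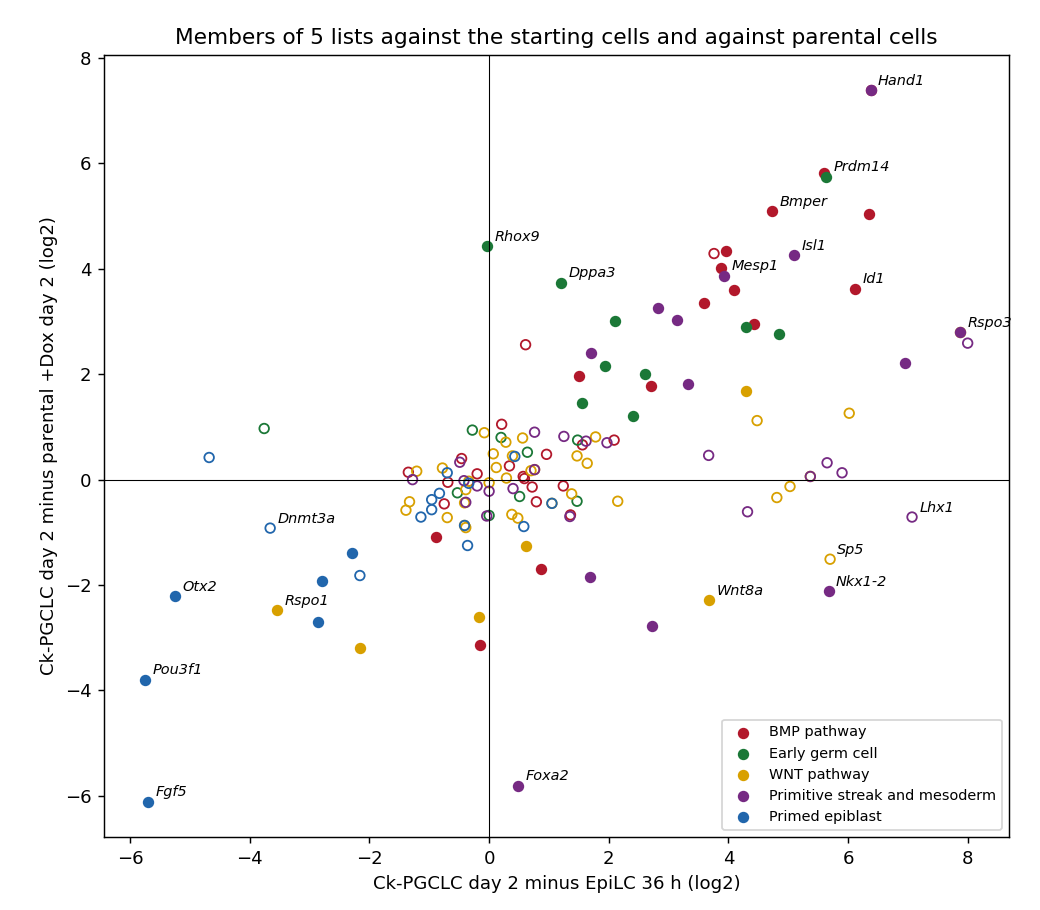
Log2 change of list members in Ck-PGCLCs at day 2 relative to EpiLCs (horizontal axis) and relative to parental +Dox cells at day 2 (vertical axis), coloured by gene list, with filled points called in the second contrast and open points not called. Hand1, Msx2 and Prdm14 lie more than 5 above parental +Dox cells, Sp5 and Cdx1 rose by over 5 against EpiLCs but were not called against parental +Dox cells, and Foxa2 lies 5.81 below.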

How the data were processed

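RNA was labelled for Affymetrix mouse arrays, per the labels' protocols, which for the 22 newly submitted arrays name PCR amplification of cDNA from about 20000 cells; that cell number is not given for the 10 earlier arrays in the fit. The authors deposited 1 log2 value per probe set and array (45101 probe sets, 0 to 14.59); the array medians are nearly equal, so the values were scaled, while the software and method were not given in the sources used here. Values were quantile normalised again here. Of the probe sets, 34958 had 1 gene symbol in GEO's annotation of the platform, 932 had several and were not named, and 9160 (controls aside) were not listed. Each gene was read from its brightest probe set by the mean of all arrays (18193 genes, 9183 with 1 probe set).

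Genes with a group mean at or above the 40th percentile (4.05) in any group were tested in 1 limma 3.58.1 fit (R 4.3.3, data.table version 1.17.8) of 16 groups and 32 arrays with 16 residual degrees of freedom, which pools the spread over groups of 2 arrays, with Benjamini-Hochberg adjustment over 15497 genes. The number of arrays limits the precision. Array replicate numbers are not tied to a shared culture or day in the labels, so the fit has no block. On simulated data of 15497 genes, the fit recovered 65 of 100 genes changed by 1.5 on the log2 scale and 97 of 100 changed by 3, with 4 false calls. Named genes are the 15 largest rises and falls among called genes whose arrays do not overlap (clone-number symbols left out), list members and defining markers. The members and lists were chosen with earlier results of these data known. Promoter sequences and gene names are from RefSeq.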

Additional observations from a re-analysis of the deposited data

Results flagged for a closer look

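Genes that were called in opposite directions from EpiLCs in 2 day 2 groups were collected. A call in the direct contrast of those groups was a condition for entry, so it is no further evidence. Against BP14A cells, 73 genes were higher than EpiLCs in Ck-PGCLCs and lower in BP14A, and 24 were lower in Ck-PGCLCs and higher in BP14A. Named genes of the first kind had differences, Ck-PGCLCs minus BP14A, of 7.81 for the receptor gene Pdgfrb, 7.69 for Fst, 6.76 for the matrix metalloproteinase gene Mmp2, 5.96 for Mixl1, 5.80 for Wnt5b, 5.74 for Vim, 5.24 for Cdh2, 4.76 for Wnt8a, 4.30 for Cdkn1c, 4.13 for the homeobox gene Gbx2, 3.48 for Phlda2, 2.94 for the receptor gene Erbb2 and 2.73 for the keratin gene Krt18. Named genes of the second kind were Gadd45a (-2.55), Nr0b1 (-2.79), the immediate early gene Ier3 (-3.41) and the meiotic cohesin gene Smc1b (-3.85). The Ck-PGCLC calls of Nr0b1, Smc1b and Erbb2 against EpiLCs were lost when single arrays were left out, that of Erbb2 without EpiLC array 1 (adjusted p = 0.0504).

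Against parental +Dox cells, 5 genes were higher than EpiLCs in Ck-PGCLCs and lower in parental +Dox cells, namely Cyp2s1, Mymx, Calcoco2, Dppa3 and Phlda2, and 4 showed the reverse, namely Sox1, Lratd1, Tafa4 and Sema3e. All 9 are named here because the counts are small, after their values were seen. The difference, Ck-PGCLCs minus parental +Dox cells, was 3.74 for the germ cell marker Dppa3, 2.98 for the imprinted gene Phlda2 and -5.43 for the neural gene Sox1. With the mean of all its probe sets, the fall of Sox1 against EpiLCs was -1.13 (adjusted p = 0.292). Cyp2s1, a cytochrome P450 gene, had 10.09 and 10.27 in Ck-PGCLCs, against 3.84 and 4.76 in parental +Dox cells and 6.04 and 5.06 in EpiLCs. Each group has 2 arrays, so no array could be tested as an outlier within its group.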

How the results depend on the processing

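The counts of genes called against EpiLCs (1305 higher, 939 lower) stayed within 1.5 times of these under every alternative but one: with no fold limit they were 2082 and 1838, and against BP14A the count lower was then 1636. Left-out arrays gave 1099 to 1313 higher and 804 to 933 lower against EpiLCs, 251 to 281 and 146 to 198 against parental +Dox cells, and 924 to 1054 and 751 to 858 against BP14A. There the lone array is assumed to vary like the other groups. The share of calls that were higher was 58.2%, but 69.5% on the deposited values and 67.1% with median centring, where the median of all genes was 0.09 and 0.04 in place of -0.04. The mean of all probe sets kept 70.6% of the calls. The replicate block gave 1324 and 942 against EpiLCs, 372 and 224 against parental +Dox cells, and 1096 and 874 against BP14A. Replicate numbers are not known to pair the arrays (correlation of the differences between arrays 1 and 2 in Ck-PGCLCs and EpiLCs, 0.27).

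Of 199 named genes called against EpiLCs, 151 held under every alternative, 173 held without each of the 4 arrays in turn, and none reversed. Calls lost were 22 with the mean of all probe sets, 15 at an adjusted p under 0.01, 13 on the deposited values and 13 to 16 without an array. Of 297 named genes not called, Hoxa3 reversed to 1.31 with the mean of all probe sets. Without EpiLC array 1, an alternative for the list counts chosen after seeing the data, glycolysis and hypoxia had 2 higher and 3 lower, naive pluripotency 9 and 1, trophoblast markers 5 and 1, neural markers 0 and 2, and germline repressors 0 and 2. DNA methylation had 0 and 5, and 1 and 3 without Ck-PGCLC array 1, where glycolysis and hypoxia also had 1 and 3. With the mean of all probe sets, cytokine receptors and STAT3 targets had 5 higher, Hox genes 7, imprinted genes 2, endoderm markers 1 and cell cycle genes 3, with 3 lower. On the deposited values, glycolysis and hypoxia had 3 higher and 2 lower, naive genes 9 and 0, BMP 15 and 0, and streak 22 and 0. The small number of arrays and dim signals limit precision.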

Other observations

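Interferon-inducible and antigen-processing genes stood out among the largest rises, and the families below were chosen after their values were seen, so their counts are descriptions. Of 6 measured guanylate-binding protein genes, which encode GTPases of cell-autonomous immunity, 5 were higher in Ck-PGCLCs than in EpiLCs and than in parental +Dox cells, beside 8.42% and 2.32% of all tested genes. The other, Gbp2b, was dim (2.44 and 2.39 in Ck-PGCLCs, against 2.22 and 1.87 in EpiLCs) and was not tested, and a gene that is bright in Ck-PGCLCs alone passes the filter through that group. Gbp2 had 10.43 and 10.32 in Ck-PGCLCs, against 8.41 and 7.91 in parental +Dox cells and 2.87 and 3.58 in EpiLCs (change from EpiLCs 7.15), and its mean in Ck-PGCLCs at day 4 was 3.38. Gbp3 had 8.63 and 8.49 in Ck-PGCLCs, against 3.80 and 1.79 in EpiLCs (change 5.76), and Gbp6, Gbp7 and Gbp8 rose by 5.52, 2.92 and 2.25. The immunoproteasome subunit gene Psmb8 had 10.17 and 10.25 in Ck-PGCLCs, against 4.42 and 3.05 in EpiLCs (change 6.47), Psmb10 rose by 1.13 and Psmb9 (0.45) was not called. None of 7 constitutive beta subunit genes was called by limma, and none had an unadjusted p under 0.05.

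Peptide transport and trimming genes were higher in 4 of 4 cases (Erap1 by 3.54, Tapbp by 2.61, Tap2 by 2.54 and Tap1 by 1.66), beside 8.42% of all tested genes. Of the class I genes B2m rose by 1.93 and H2-D1 by 1.06, with H2-K1 at 0.85 not called. Against parental +Dox cells, where 2.32% of tested genes were higher, 3 of 4 transport and trimming genes and none of 3 class I genes were higher. B2m had 10.53 and 10.53 in Ck-PGCLCs, against 10.63 and 10.82 in parental +Dox cells. Of 7 interferon regulatory factor genes 4 rose (Irf2 by 4.35, Irf1 by 2.52, Irf7 by 1.66 and Irf9 by 1.01), and 2 of the 7 were higher than in parental +Dox cells. Of the immunity-related GTPase genes 3 of 4 rose, Irgm1 by 3.81 (5.90 and 8.69 in Ck-PGCLCs, against 2.22 and 4.76 in EpiLCs), and of the IFIT genes 1 of 3. Against parental +Dox cells 2 of the 4 GTPase genes and none of the IFIT genes were higher. None of 5 tested interferon genes was called by limma (1 had an unadjusted p under 0.05), nor either of 2 tested interferon-response chemokine genes (0 with an unadjusted p under 0.05). Of 6 STAT genes Stat3 and Stat5b rose and Stat4 fell. Of 4 metallothionein genes Mt3 fell by 7.81, while Mt1 (12.09 and 12.29 in Ck-PGCLCs, against 13.34 and 13.34 in EpiLCs) and Mt2 were not called.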
